A study of Mus musculus with 12 samples.

Results

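The genes of bile acid synthesis and uptake were examined in primary cultured mouse hepatocytes exposed to benzbromarone (BBR), a uric acid-lowering drug that blocks the renal urate transporter URAT1, with or without oleic acid (OA), the monounsaturated fatty acid used for lipid loading. The set held 10 genes, taken by gene symbol from the 22471 features of each table, and every one of the 10 had exactly 1 row. They were the cytochrome P450 genes Cyp7a1, Cyp8b1, Cyp27a1 and Cyp7b1, the conjugation genes Slc27a5 and Baat, the uptake carrier genes Slc10a1 and Slco1b2, and the nuclear receptor genes Nr1h4 and Nr0b2. A second list of 48 other bile acid genes served for comparison.

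RNA sequencing covered 12 libraries in 4 groups of 3. Per the study's methods, the cells came from C57BL/6J males aged 6 weeks, were prepared by collagenase perfusion and a Percoll step and were kept in serum-supplemented medium, so that all 4 groups share this isolation and culture. The control group (Con) received neither compound, the OA group (ConOA) 0.2 mM OA pre-incubated with albumin, the BBR group (BBR) 15 µM BBR, and the BBR+OA group (BBROA) both at these doses, each for 16 h. Whether control and BBR cells received the albumin carrier is not given in the sources used here. Nor is it stated whether each replicate was a mouse of its own or a well of a shared preparation, so p-values measure the spread between these libraries, which may be technical.

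Hepatocytes make bile acids from cholesterol along a pair of routes: the classical route starts with 7α-hydroxylation by Cyp7a1 and uses Cyp8b1 to make cholic acid, and the alternative route starts with the mitochondrial enzyme Cyp27a1 and continues with Cyp7b1. Bile acids returning from the intestine are taken up at the sinusoidal membrane, chiefly by the sodium-dependent carrier NTCP (Slc10a1) and the organic anion carrier OATP1B2 (Slco1b2), re-activated by Slc27a5 and joined to taurine or glycine by Baat. They bind the receptor FXR (Nr1h4), which induces the corepressor SHP (Nr0b2), and SHP in turn restrains the synthesis genes.

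Total counts per library ranged from 15485508 to 23668379, and 14745 to 15148 features had counts. The limit that a count of 0 allows, 3 counts, lay between 0.127 and 0.194 CPM (counts scaled to the library total), for counting error only. The hepatocyte label was checked against 9 markers with a single row each: albumin (Alb) alone averaged 28091 CPM in control, and none of the 9 was at or under 3 counts throughout. The markers were uneven there. Tat and Cps1 averaged only 7.71 and 17.9 CPM in control, and the others at least 120.7. Spp1, listed as a cholangiocyte marker, averaged 613 CPM in control. In bulk RNA, fewer cells of a type and less RNA per cell cannot be told apart.

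Levels of the genes were compared with each other on the FPKM scale (fragments scaled by transcript length and library size). In control, Slc27a5 stood first at 46.2 ± 4.74 FPKM (SD, n = 3) and Cyp27a1 second at 40.8 ± 1.27, at the 90.1st and 88.6th percentile of features with an FPKM above 0. Nr1h4 followed at 7.90 ± 0.114, Cyp7b1 at 6.41 ± 0.197 and Slc10a1 at 3.60 ± 0.124. Then came Cyp8b1 at 2.11 ± 0.382, Baat at 2.08 ± 0.201, Nr0b2 at 1.77 ± 0.129 and Slco1b2 at 0.940 ± 0.201. Of these neighbours, Cyp8b1 and Baat overlapped in their libraries, as did Baat and Nr0b2, and the other neighbours did not. The order thus placed the activating enzyme and the first enzyme of the alternative route far above the carriers. Cyp7a1 was last, listed at 0.01, 0 and 0.01 FPKM in the 3 control libraries. In BBR libraries Baat moved from the seventh to the ninth place, at 0.360 ± 0.171 FPKM, overlapping Nr0b2 at 0.400 ± 0.142.

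**Figure D1:**
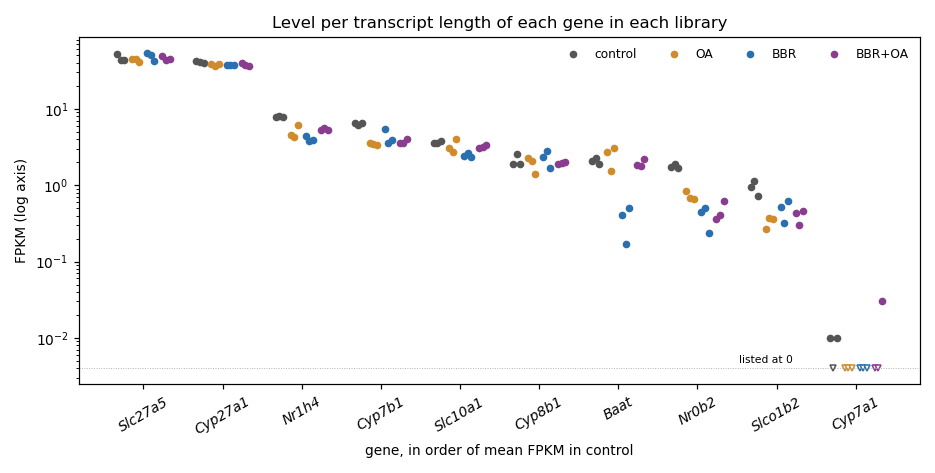
FPKM of each gene in each of the 12 libraries on a log axis, with genes in order of their control mean and 3 points a group; open triangles on the dotted line are libraries listed at 0. Slc27a5 and Cyp27a1 lie above all others in every library, and the 3 BBR points of Baat lie below its points in the other groups.

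Promoter sequences show the start regions of genes that were lower in several comparisons, Nr0b2, Nr1h4 and Slco1b2, beside Cyp27a1, which no comparison called by adjusted p. RefSeq windows on GRCm38.p6 were matched for 6 of the 10 genes (Cyp8b1, Cyp27a1, Slc10a1, Slco1b2, Nr1h4 and Nr0b2), and Cyp7a1, Cyp7b1, Baat and Slc27a5 had none. Each sequence below is the 250 bases before the RefSeq start, read 5′ to 3′ on the strand of the gene, with motif matches in capitals.
Nr0b2 chr4:133553126-133553375 (plus strand): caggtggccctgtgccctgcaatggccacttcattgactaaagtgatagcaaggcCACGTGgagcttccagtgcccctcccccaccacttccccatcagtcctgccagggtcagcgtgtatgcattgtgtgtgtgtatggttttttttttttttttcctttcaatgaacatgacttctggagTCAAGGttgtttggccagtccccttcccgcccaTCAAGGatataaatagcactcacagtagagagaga
Nr1h4 chr10:89506659-89506908 (minus strand): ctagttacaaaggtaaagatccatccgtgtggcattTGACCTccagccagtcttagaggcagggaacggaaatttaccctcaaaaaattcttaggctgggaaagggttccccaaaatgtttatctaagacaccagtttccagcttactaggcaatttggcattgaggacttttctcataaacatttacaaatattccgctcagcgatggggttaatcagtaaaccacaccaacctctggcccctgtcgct
Slco1b2 chr6:141629268-141629517 (plus strand): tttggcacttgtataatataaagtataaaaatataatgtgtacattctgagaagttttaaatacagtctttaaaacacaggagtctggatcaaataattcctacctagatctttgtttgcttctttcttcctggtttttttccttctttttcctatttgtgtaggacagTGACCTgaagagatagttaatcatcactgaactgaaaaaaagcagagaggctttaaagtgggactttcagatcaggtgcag
Cyp27a1 chr1:74713285-74713534 (plus strand): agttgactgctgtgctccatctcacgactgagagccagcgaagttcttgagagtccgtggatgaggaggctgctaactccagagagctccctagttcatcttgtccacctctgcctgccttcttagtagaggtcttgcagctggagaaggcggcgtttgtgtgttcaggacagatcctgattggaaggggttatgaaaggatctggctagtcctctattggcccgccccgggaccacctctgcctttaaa
The letters searched on both strands were AGGTCA, a nuclear receptor half-site, TCAAGG, the core bound by the receptor LRH-1, and CACGTG, an E-box. The Nr0b2 window held TCAAGG at positions -68 to -63 and -35 to -30 from the start and CACGTG at -195 to -190, and the Nr1h4 window AGGTCA on the opposite strand (written TGACCT) at -214 to -209. The Slco1b2 window held AGGTCA on the opposite strand at -81 to -76, and the Cyp27a1 window held none of the 3. No matches overlapped. Of the windows not printed, that of Cyp8b1 held no match. Slc10a1 has a window for each of 2 RefSeq starts: the one directly before the GENCODE gene start held no match, and the one inside the gene span held AGGTCA at -87 to -82. Among 32851 windows of the same length, 14.02% held AGGTCA, 12.5% TCAAGG and 6.02% CACGTG. The RefSeq start of Nr1h4 lies inside the longer gene span of GENCODE. A match describes the letters only.

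Values below are CPM scaled by the trimmed mean of M values (TMM), log2 fold changes come with their standard error (SE) from edgeR, and a gene was called changed at a Benjamini-Hochberg adjusted p under 0.05 over all genes tested. To see which of these genes BBR altered without lipid loading, BBR was compared with control. Of 9 genes tested, 6 were lower and 0 higher, against 14.5% of all 12555 genes called lower and 27.7% called in either direction. The 6 were Cyp7b1, Baat, Slc10a1, Slco1b2, Nr1h4 and Nr0b2, and Cyp8b1, Cyp27a1 and Slc27a5 were not called. The median log2 fold change of the 9 was -0.54, and that of all genes -0.00085. Ranges did not overlap for 7 of the 9, the 6 called and Cyp27a1, against 41.5% of all genes. Baat and Nr0b2 passed the filter on low counts through their control libraries, so the count of 6 of 9 describes the genes that passed and supports nothing further.

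The same drug comparison under lipid loading, BBR+OA against OA, shares no library with the first. None of the 9 genes tested was called in edgeR, at an unadjusted p under 0.05 the count was also 0, and DESeq2 and limma-voom gave 0 each. The background there was 4.59% of 12278 genes, with 1.95% higher and 2.63% lower. Ranges did not overlap for 1 gene, Nr0b2, against 23.9% of all genes. Nr0b2 passed the filter there through its OA libraries, so its separation describes a gene that passed where it was high. The difference between both BBR effects is the interaction of BBR and OA, fitted on all 12 libraries. It was called positive for 4 of 9 genes (Cyp7b1, Baat, Nr1h4 and Nr0b2) and called negative for 0. Of 12742 genes, 12.2% were called for this difference with 6.87% positive and 5.31% negative. In that fit Nr0b2 passed the filter on low counts through its control and OA libraries, and Baat through the groups other than BBR. The count of 4 of 9 thus describes the genes that passed.

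OA alone was compared with control to give the effect of lipid loading itself. Of 9 genes tested 4 were lower (Cyp7b1, Slco1b2, Nr1h4 and Nr0b2) and 0 higher, with 21.5% of 12418 genes called lower, 21.3% higher and 42.8% in all. Ranges did not overlap for 5 genes, these 4 and Cyp27a1, against 52.2% of all genes, a share near the background. BBR+OA against BBR tested 8 genes, with 3 higher (Baat, Slc10a1 and Nr1h4) and 0 lower, beside 20.1% called higher, 18.8% lower and 38.9% in all among 12416 genes, and the ranges of these 3 did not overlap, against 49.6% of all genes. Baat passed the filter there through its BBR+OA libraries. BBR+OA against control called 4 of 9 lower (Cyp7b1, Slco1b2, Nr1h4 and Nr0b2) and 0 higher, beside 22.2% of 12471 genes called lower, 21.6% higher and 43.8% in all, and ranges did not overlap for these 4, against 52.9% of all genes. Nr0b2 passed the filter there through its control libraries, so these counts too describe the genes that passed. BBR, OA and BBR+OA were each set against the same 3 control libraries, so these comparisons are not independent of each other.

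Markers of other cells moved with some of these comparisons. The summed level of 10 Kupffer cell markers was 136 to 178 CPM in BBR, against 97.2 to 115 in control, 95.7 to 113 in OA and 96.6 to 112 in BBR+OA. Most of it was Cd68, a lysosomal glycoprotein, at 131 CPM in BBR and 80.0 in control (log2 fold change 0.71, adjusted p = 9.04e-05), and of 9 Kupffer markers tested in BBR against control 1 was higher and 1 lower. The 8 cholangiocyte markers summed to 603 to 731 CPM in control, 395 to 427 in BBR, 254 to 284 in OA and 210 to 253 in BBR+OA, most of it Spp1 (osteopontin), with Krt7 and Cftr at or under 3 counts in all 12 libraries. The sum follows Spp1: of 5 cholangiocyte markers tested in BBR against control, 3 were higher (Krt19, Epcam and Sox9, log2 fold changes 0.68, 0.92 and 0.61) and 2 lower (Spp1 and Slc10a2). The 8 endothelial markers summed to 54.1 to 57.0 CPM in control and 60.9 to 66.2 in BBR, with 3 of 8 tested higher and 0 lower, and the 7 stellate markers to 19.1 to 22.0 and 20.7 to 22.8, with 0 of 4 called in either direction. Of 9 hepatocyte markers, 1 was higher in BBR against control (Ttr, log2 fold change 0.18) and 5 lower (Cps1 -0.86, Fgb -0.81, Tat -0.44, Hnf4a -0.26 and Ass1 -0.15). In OA against control 6 were higher and 1 lower, and there 2 Kupffer markers were higher and 6 lower. Over all genes, BBR against control called 13.2% higher and 14.5% lower, and OA against control 21.3% higher and 21.5% lower. In BBR+OA against BBR 6 of the 9 hepatocyte markers were higher and 0 lower, Cps1 by 19.5-fold and Tat by 2.87-fold. The interaction was called positive for 3 and negative for 0. Over all genes, BBR+OA against BBR called 20.1% higher and 18.8% lower, and the interaction 6.87% positive and 5.31% negative. The hepatocyte markers summed to 32526 to 34001 CPM in control, 33109 to 35018 in BBR, 37468 to 39160 in OA and 38377 to 40483 in BBR+OA. Most of each sum was Alb, so the sum does not show the markers that fell. The mitochondrial share of counts was 5.50 to 6.07% in control, 5.63 to 6.28% in OA, 6.34 to 6.89% in BBR and 6.09 to 6.59% in BBR+OA, so that BBR stood above control and OA without overlap. The part of these shifts in the results was not tested.

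**Figure D2:**
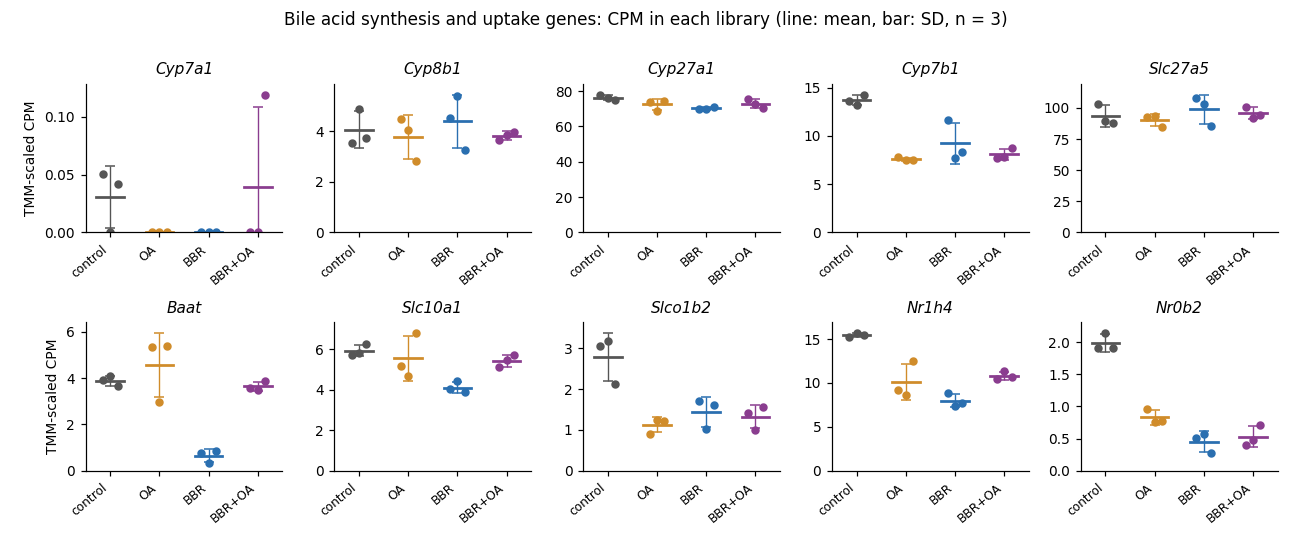
TMM-scaled CPM of the 10 genes in each library, 1 panel a gene with axes from 0; points are the 3 libraries of a group, the line is their mean and the bar their SD. The BBR libraries of Baat sit between 0.320 and 0.859 CPM, below those of the other 3 groups, and the control libraries of Cyp7b1 and Nr1h4 sit above all others.

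The classical route was nearly silent at its first step. Cyp7a1 (ENSMUSG00000028240, GRCm38 chromosome 4, 6265612 to 6275633, minus strand), the rate-limiting enzyme of the route, had 4 counts in all among 231649808. The control libraries held 1, 0 and 1 counts, the OA libraries and the BBR libraries 0 each, and the BBR+OA libraries 0, 0 and 2. It was at 0 in 9 of 12 libraries and never above 3 counts, it passed no filter, and no fold change is given.

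Cyp8b1 (ENSMUSG00000050445, chromosome 9, 121914356 to 121916305, minus strand), the 12α-hydroxylase, was detected at 3.56, 4.90 and 3.72 CPM in control and 4.52, 5.38 and 3.28 in BBR. With OA it stood at 4.48, 4.06 and 2.81 CPM, and with BBR+OA at 3.65, 3.86 and 3.99. The 4 groups overlapped. BBR against control gave a log2 fold change of 0.11 (SE 0.19, 95% interval -0.29 to 0.52, adjusted p = 0.702), and BBR+OA against OA one of 0.021 (adjusted p = 0.969, SE 0.18). OA against control gave -0.10 with an interval of -0.52 to 0.31, so that changes within these bounds are not excluded.

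The alternative route split between its enzymes. Cyp27a1 (ENSMUSG00000026170, chromosome 1, 74713574 to 74737892, plus strand), the sterol 27-hydroxylase, was nearly level at 77.9, 75.9 and 75.0 CPM in control and 74.0, 68.7 and 74.6 in OA. In BBR it stood at 69.8, 69.6 and 71.0 CPM and in BBR+OA at 75.2, 72.9 and 70.2. The BBR and the OA libraries lay below the control libraries without overlap, but neither passed, with log2 fold changes of -0.11 (adjusted p = 0.0856, SE 0.047) for BBR and -0.069 for OA. No other comparison called it, and the interaction was 0.13 (adjusted p = 0.239, SE 0.066).

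Cyp7b1 (ENSMUSG00000039519, chromosome 3, 18071950 to 18243338, minus strand), the oxysterol 7α-hydroxylase, was lower in each treated group. Control libraries held 13.6, 13.2 and 14.3 CPM, OA libraries 7.77, 7.53 and 7.45, BBR libraries 11.7, 7.75 and 8.32, and BBR+OA libraries 7.70, 7.83 and 8.75. All treated libraries were below all control libraries, with BBR replicate 1 nearest to control. BBR lowered it by a log2 fold change of -0.54 (adjusted p = 0.00349, SE 0.12), OA by -0.85 (adjusted p = 4.69e-06, SE 0.092) and both together by -0.77 (adjusted p = 4.44e-06, SE 0.094). On top of OA, BBR gave a log2 fold change of 0.089 (SE 0.11, 95% interval -0.15 to 0.32, adjusted p = 0.727), and on top of BBR, OA gave -0.22 (95% interval -0.53 to 0.093, adjusted p = 0.259). The interaction was 0.64 (adjusted p = 0.0210, SE 0.17). That call was lost without OA replicate 2 (0.61, adjusted p = 0.0591), BBR replicate 2 (0.54, adjusted p = 0.0576), BBR replicate 3 (0.56, adjusted p = 0.0565) or BBR+OA replicate 3 (0.56, adjusted p = 0.0719).

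The conjugation genes also parted. Slc27a5 (ENSMUSG00000030382, chromosome 7, 12988346 to 12998192, minus strand), the bile acyl-CoA synthetase that activates bile acids for conjugation, was at 103, 89.7 and 87.5 CPM in control and 92.5, 93.5 and 84.8 in OA. In BBR it held 108, 103 and 85.4 CPM, and in BBR+OA 101, 91.8 and 94.5. Every pair of groups overlapped and no comparison called it. BBR against control gave a log2 fold change of 0.089 (SE 0.077, 95% interval -0.074 to 0.25, adjusted p = 0.432), and BBR+OA against OA 0.085 (SE 0.055, 95% interval -0.033 to 0.20, adjusted p = 0.445). The interaction was 0.0069 with an adjusted p of 0.982.

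Baat (ENSMUSG00000039653, chromosome 4, 49489422 to 49506557, minus strand), the bile acid-CoA:amino acid N-acyltransferase that completes conjugation, showed the widest BBR difference of the set. It was at 3.91, 4.09 and 3.67 CPM in control and at 0.784, 0.320 and 0.859 in BBR (17, 5 and 16 counts). With OA it was at 5.33, 2.98 and 5.41 CPM, and with BBR+OA at 3.60, 3.49 and 3.87. The BBR libraries lay below those of all other groups, whereas control, OA and BBR+OA overlapped. BBR brought it to 0.176 of the control level, a log2 fold change of -2.50 (SE 0.26, 95% interval -3.05 to -1.96, adjusted p = 2.70e-06). In BBR+OA it was 5.34-fold above BBR, a log2 fold change of 2.42 (adjusted p = 7.09e-06, SE 0.27). BBR+OA against OA gave -0.33 (SE 0.21, 95% interval -0.77 to 0.11, adjusted p = 0.425), and BBR+OA against control -0.096 (adjusted p = 0.650, SE 0.16). The interaction was 2.18 (adjusted p = 5.58e-04, SE 0.36) and was called without any 1 library. OA against control gave 0.24 (adjusted p = 0.352, SE 0.20), and without OA replicate 2, the library at 2.98 CPM, it was called higher (0.47, adjusted p = 0.0303).

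Of the uptake carriers, Slc10a1 (ENSMUSG00000021135, chromosome 12, 80953183 to 80968705, minus strand) shared the direction of Baat at a smaller size. It was at 5.71, 5.80 and 6.25 CPM in control, 5.16, 4.66 and 6.79 in OA, 4.01, 4.42 and 3.87 in BBR, and 5.12, 5.45 and 5.71 in BBR+OA. The BBR libraries were below those of the other 3 groups, which overlapped each other. BBR lowered it by a log2 fold change of -0.53 (adjusted p = 0.00816, SE 0.14). BBR+OA against BBR gave 0.40 (adjusted p = 0.0354, SE 0.14), a call lost with DESeq2 (0.40, adjusted p = 0.107) and with upper quartile scaling (0.36, adjusted p = 0.0568). It was lost as well, at adjusted p of 0.0787 to 0.102, without replicate 1 (0.39) or 3 (0.36) of BBR and without replicate 2 (0.40) or 3 (0.37) of BBR+OA. BBR+OA against OA gave -0.039 (SE 0.15, 95% interval -0.37 to 0.29, adjusted p = 0.922). The interaction, 0.50 (adjusted p = 0.116, SE 0.20), was called without OA replicate 3 (0.68, adjusted p = 0.0219).

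Slco1b2 (ENSMUSG00000030236, chromosome 6, 141629518 to 141686646, plus strand) was lower in each treated group. Control libraries held 3.06, 3.19 and 2.11 CPM, OA libraries 0.908, 1.25 and 1.23, BBR libraries 1.71, 1.02 and 1.61, and BBR+OA libraries 1.42, 1.005 and 1.55. No treated library reached the lowest control library, and the 3 treated groups overlapped. OA lowered it by a log2 fold change of -1.28 (adjusted p = 7.90e-04, SE 0.25) and BBR+OA by -1.07 (adjusted p = 0.00208, SE 0.25). BBR lowered it by -0.90 (adjusted p = 0.0118, SE 0.25), a call lost without control replicate 2 (-0.79, adjusted p = 0.0584) or BBR replicate 2 (-0.73, adjusted p = 0.0610). BBR+OA against OA gave 0.22 (SE 0.28, 95% interval -0.38 to 0.82, adjusted p = 0.735), and BBR+OA against BBR -0.16 (95% interval -0.76 to 0.44, adjusted p = 0.684). The interaction was 1.13 (adjusted p = 0.0597, SE 0.38), and it was called without control replicate 3 (1.31, adjusted p = 0.0335) and with the replicate number as a block (1.13, adjusted p = 0.0498).

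Both nuclear receptor genes were lower in all treated groups. Nr1h4 (ENSMUSG00000047638, chromosome 10, 89454234 to 89533585, minus strand), encoding the bile acid receptor FXR, was at 15.3, 15.7 and 15.5 CPM in control, 9.19, 8.62 and 12.5 in OA, 8.81, 7.43 and 7.68 in BBR, and 10.4, 11.3 and 10.7 in BBR+OA. Control stood above every treated library, and BBR+OA stood above BBR without overlap. BBR lowered it by a log2 fold change of -0.94 (adjusted p = 1.82e-06, SE 0.093), OA by -0.61 (adjusted p = 7.84e-04, SE 0.12) and BBR+OA by -0.52 (adjusted p = 6.65e-05, SE 0.082). BBR+OA against BBR was higher at 0.43 (adjusted p = 0.00514, SE 0.10). BBR+OA against OA gave 0.092 (SE 0.13, 95% interval -0.18 to 0.37, adjusted p = 0.757). The interaction was 1.04 (adjusted p = 3.39e-04, SE 0.16) and was called without any 1 library.

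Nr0b2 (ENSMUSG00000037583, chromosome 4, 133553376 to 133556536, plus strand), encoding the corepressor SHP that FXR induces, was at 1.90, 2.14 and 1.90 CPM in control (38, 45 and 45 counts). OA libraries held 0.964, 0.759 and 0.766 CPM, BBR libraries 0.507, 0.577 and 0.269 (11, 9 and 5 counts), and BBR+OA libraries 0.405, 0.476 and 0.714. Control was above every treated library, and OA was above both BBR and BBR+OA. BBR lowered it by a log2 fold change of -2.12 (adjusted p = 7.56e-05, SE 0.31), OA by -1.25 (adjusted p = 0.00108, SE 0.25) and BBR+OA by -1.91 (adjusted p = 5.34e-05, SE 0.29). BBR+OA against OA gave -0.65 (SE 0.35, 95% interval -1.41 to 0.11, adjusted p = 0.344), without overlap between the libraries but not called. BBR+OA against BBR was not tested, since its counts did not pass the filter. The interaction of 1.48 (adjusted p = 0.0472, SE 0.47) lay at the threshold: without any 1 of the 12 libraries it was 1.21 to 1.66 with adjusted p of 0.0523 to 0.167, and without the filter on low counts its adjusted p was 0.0700.

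**Figure D3:**
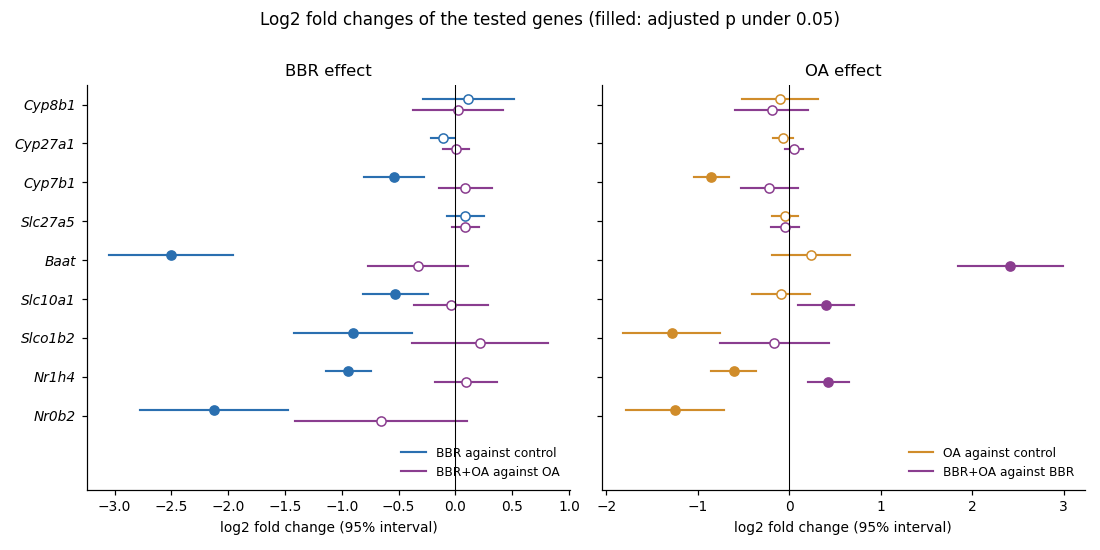
Log2 fold changes with 95% intervals from edgeR for the tested genes, BBR effects on the left and OA effects on the right; filled points passed an adjusted p of 0.05, and Nr0b2 has no point for BBR+OA against BBR because it was not tested. On the left 6 BBR points are filled and no BBR+OA against OA point is, and on the right Baat lies at 2.42 with BBR and at 0.24 without it.

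The 48 other bile acid genes were counted by role, and the shares over all genes stand beside the totals. In BBR against control 4 were higher and 18 lower of 40 tested (median log2 fold change -0.25), against 13.2% and 14.5% of all genes. In BBR+OA against OA 5 were higher and 1 lower of 39 (median 0.020), against 1.95% and 2.63%. OA against control gave 6 higher and 15 lower of 40, against 21.3% and 21.5%. BBR+OA against BBR gave 9 higher and 8 lower of 40, near the background of 20.1% and 18.8%. BBR+OA against control gave 10 higher and 17 lower of 40, against 21.6% and 22.2%. The interaction was called positive for 14 and negative for 1 of 41, against 6.87% and 5.31%. The counts by role below stand against the same shares and describe the genes that passed the filter. Slc51a, Slc51b, Slco1a4, Slco1a5, Cyp46a1, Gpbar1 and Sult2a1 passed the filter in no comparison. Values of Cyp2c70, Cyp3a11 and Sult2a8 may include reads of near-identical family members.

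Of the regulators, BBR lowered 8 and raised 1 of 14 tested, and BBR+OA against OA called 0 of 13. Nr1i2, encoding the xenobiotic receptor PXR, was at 9.15 ± 0.313 CPM (SD, n = 3) in BBR and 15.05 ± 0.409 in control, a log2 fold change of -0.71 (adjusted p = 1.44e-05, SE 0.087). It was at 8.91 ± 0.734 CPM in OA and 9.01 ± 0.700 in BBR+OA, and its interaction was 0.73 (adjusted p = 9.99e-04, SE 0.13). Klb, the co-receptor through which FGF15 signals, was lower in BBR+OA than in BBR, at 2.50 ± 0.301 against 6.36 ± 1.27 CPM (log2 fold change -1.33, adjusted p = 6.27e-05, SE 0.19).

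Of 8 exporters tested, OA raised 1 and lowered 5, and BBR raised 0 and lowered 4. Abcb11, the canalicular bile salt export pump, rose with OA from 14.1 ± 1.53 to 32.8 ± 6.03 CPM (log2 fold change 1.22, adjusted p = 1.95e-06, SE 0.12) and from 9.90 ± 1.66 in BBR to 27.6 ± 1.22 in BBR+OA (1.47, adjusted p = 6.23e-08, SE 0.10). Abcb4, the canalicular phospholipid floppase, moved the other way, from 251 ± 13.9 CPM in control to 97.8 ± 8.48 in OA (log2 fold change -1.35, adjusted p = 2.40e-09, SE 0.065) and 117 ± 3.36 in BBR+OA (-1.10, adjusted p = 2.11e-11, SE 0.048). Abcc4, a basolateral exporter, was at 29.8 ± 1.72 CPM in control, 25.0 ± 1.34 in BBR and 14.1 ± 2.93 in BBR+OA, a log2 fold change of -1.09 (adjusted p = 3.71e-07, SE 0.11) between the last and control.

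Among the other synthesis enzymes, BBR raised 1 and lowered 4 of 12, and BBR+OA against OA raised 4 and lowered 1 of 12. Cyp2c70, which makes the muricholic acids of mice, rose with OA from 22.9 ± 1.42 to 111 ± 6.91 CPM (log2 fold change 2.29, adjusted p = 7.24e-12, SE 0.065), and stood at 18.5 ± 2.44 in BBR and 69.1 ± 1.995 in BBR+OA. It was the gene of this role that BBR lowered under OA (log2 fold change -0.69, adjusted p = 5.29e-06, SE 0.055). Its interaction of -0.38 (adjusted p = 0.0234) was lost without control replicate 2 (-0.37), control replicate 3 (-0.34), OA replicate 1 (-0.34), BBR replicate 1 (-0.31) or BBR replicate 2 (-0.34). Slc27a2, a very long-chain acyl-CoA synthetase that activates bile acid precursors, fell with OA from 35.7 ± 1.38 to 19.3 ± 1.803 CPM (log2 fold change -0.88, adjusted p = 5.68e-07, SE 0.076). It was at 34.1 ± 3.05 CPM in BBR+OA, above OA by 0.82 (adjusted p = 5.85e-05, SE 0.085), with an interaction of 0.98 (adjusted p = 8.22e-04, SE 0.17). Abcd3, the peroxisomal carrier of those precursors, was at 124 ± 3.67 CPM in BBR+OA and 92.9 ± 2.05 in OA (log2 fold change 0.41, adjusted p = 1.76e-04, SE 0.047).

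In the remaining roles, 3 uptake and 3 detoxication genes were tested. BBR raised 2 and lowered 1 of the detoxication genes: Cyp3a11, a P450 that hydroxylates bile acids and drugs, rose from 159.7 ± 10.7 to 201 ± 14.6 CPM (log2 fold change 0.34, adjusted p = 3.99e-04, SE 0.059), and Sult2a8, a bile acid sulfotransferase, from 6.56 ± 0.285 to 8.15 ± 0.403 (0.32, adjusted p = 0.0402, SE 0.11). The Sult2a8 call was lost with DESeq2 (adjusted p = 0.115) and without any 1 of its 6 libraries (0.31 to 0.36, adjusted p of 0.0505 to 0.104). BBR+OA against OA called 0 of the 3 uptake and 0 of the 3 detoxication genes.

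Slc10a2, the apical sodium-dependent bile acid carrier of ileum and bile duct, was listed as a cholangiocyte marker and was singled out here after its values were seen. It was at 9.77, 10.7 and 11.2 CPM in control, 10.7, 11.6 and 10.8 in OA, 4.43, 3.72 and 4.24 in BBR, and 10.8, 12.4 and 10.2 in BBR+OA. The BBR libraries were below all others, and the other 3 groups overlapped. BBR lowered it by a log2 fold change of -1.34 (adjusted p = 7.62e-07, SE 0.12), BBR+OA exceeded BBR by 1.42 (adjusted p = 8.91e-07, SE 0.13), BBR+OA against OA gave 0.014 (adjusted p = 0.963), and the interaction was 1.36 (adjusted p = 2.02e-05, SE 0.15).

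**Figure D4:**
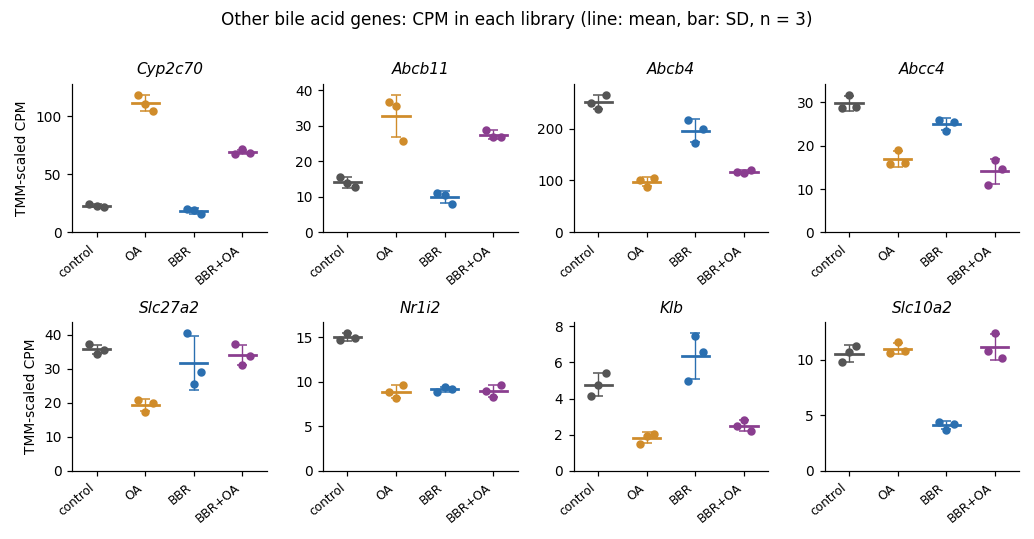
TMM-scaled CPM of 8 further genes in each library, with axes from 0. Slc10a2 was listed as a cholangiocyte marker, and the rest are on the list of other bile acid genes. Points are the 3 libraries of a group, the line their mean and the bar their SD. Cyp2c70 and Abcb11 are higher and Abcb4 and Abcc4 lower in both OA-containing groups, Slc10a2 is lowest in BBR, Klb averages 6.36 CPM in BBR and 2.50 in BBR+OA, and Nr1i2 averages 8.91 to 9.15 CPM in the 3 treated groups.

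For each gene the 3 others with the most similar pattern were found by Pearson correlation of log2 CPM over the 12 libraries among genes averaging at least 5 CPM. These coefficients are descriptions, since the points share 4 groups and their depths. Baat was followed by Hp (haptoglobin, r = 0.985), Ak3 (0.985) and Tmem176a (0.985), all chosen from 9715 genes. Nr1h4 lay nearest to Zfp874a (r = 0.965), Stxbp6 (0.957) and Gstt1 (0.945), and Cyp7b1 to Sppl2a (0.966), Aldh5a1 (0.964) and Fbp1 (0.961). Nr0b2 was closest to Psmb10 (r = 0.955), Shmt1 (0.945) and Fgg (0.940), Slc10a1 to Mrpl18 (0.953), Fkbp4 (0.923) and Bhmt2 (0.918), and Slco1b2 to Oxa1l (0.929), Dmpk (0.925) and Anapc2 (0.921). The genes that no comparison called by adjusted p had lower coefficients. Such coefficients depend on differences between the 4 groups, so this contrast adds nothing to the calls. Cyp27a1 had Aarsd1 at 0.892, Grk5 at 0.887 and Ccdc85c at 0.878. Slc27a5 had H3f3b at 0.901, Mup2 at 0.860 and Zc3hav1 at 0.852, and Cyp8b1 had Bin3 at 0.764, Tmem72 at 0.750 and Fbxl12 at 0.748.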

How the data were processed

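Poly(A)-enriched RNA of 12 libraries was sequenced on an Illumina instrument. The authors deposited, for every library, the estimated count and FPKM of 22471 features. The labels' processing notes name the build mm10. The aligner, the counter and use of strand are not given in the sources used here, so that reads of overlapping or near-identical genes cannot be told apart. Estimated counts (2862 features fractional in some library) were rounded and fitted in edgeR 4.0.16 (R 4.3.3), on the 6 libraries compared, with the filterByExpr minimum count of 10, TMM scaling and two-sided quasi-likelihood F tests. SE were derived from the F statistic. Interactions used 12 libraries. The FPKM values that the authors deposited served to order levels and were not tested. Coordinates are from GENCODE on GRCm38, promoters from RefSeq.

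Group labels were read from titles, and no library was left out. Replicates differed by more than counting noise (chi-square over degrees of freedom 2.77 to 7.61). Counting error alone sets a limit of 0.127 to 0.194 CPM at 3 counts. Named genes were the 10 members and, of the 48 other bile acid genes, the 2 largest called rises and 2 largest called falls per comparison with at least 5 CPM in the higher group. A further gene that this rule names is not reported here. The members, the lists and the tests were chosen with earlier results of these data known. Fits were tested on simulated data with the same dispersion for every gene and 2-fold changes planted in genes with a mean count above 10. Whether that setting matches the spread of these libraries was not tested. Alternatives were RLE and upper quartile scaling, DESeq2 1.42.0, limma-voom (limma 3.58.1), no filter, a 2-fold minimum, unadjusted p, a replicate block, all 12 libraries in 1 fit, and leaving out each library.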

Additional observations from a re-analysis of the deposited data

Results flagged for a closer look

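For 4 genes the BBR effect with OA differed from the BBR effect without OA by the interaction test in edgeR. Of these, Baat and Nr0b2 passed the filter on low counts through libraries of groups other than BBR. The log2 difference was 0.64 for Cyp7b1 (adjusted p = 0.0210), 2.18 for Baat (adjusted p = 5.58e-04), 1.04 for Nr1h4 (adjusted p = 3.39e-04) and 1.48 for Nr0b2 (adjusted p = 0.0472). Baat and Nr1h4 were called without any 1 of the 12 libraries, Cyp7b1 was not called without OA replicate 2 (0.61), BBR replicate 2 (0.54), BBR replicate 3 (0.56) or BBR+OA replicate 3 (0.56), and Nr0b2 was not called without any 1 of them (1.21 to 1.66).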

How the results depend on the processing

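Over the single-gene results of the 10 genes, 766 alternatives kept direction and call, 36 lost a call, 7 gained one and 28 changed the sign of a value that was not called; over the other named genes these were 382, 26, 0 and 2. Requiring a 2-fold change left 2 of 6 calls in BBR against control (Baat and Nr0b2), 2 of 4 in OA against control and 2 of 4 in BBR+OA against control (Nr0b2 and Slco1b2 in both), and 1 of 3 in BBR+OA against BBR (Baat). Leaving out 1 library gave 5 to 6 called members in BBR against control, 0 to 0 in BBR+OA against OA, 4 to 5 in OA against control, 2 to 3 in BBR+OA against BBR, 4 to 4 in BBR+OA against control and 2 to 4 for the interaction, where 2 remained (Baat and Nr1h4) without OA replicate 2, BBR replicate 2, BBR replicate 3 or BBR+OA replicate 3. DESeq2 gave no adjusted p for the Nr0b2 interaction.

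Signs changed when 1 library was left out for Cyp8b1 (log2 fold change -0.041 to 0.28 in BBR against control, -0.16 to 0.16 in BBR+OA against OA, -0.24 to 0.079 in OA against control, -0.17 to 0.071 in BBR+OA against control, interaction -0.26 to 0.072), Cyp27a1 (-0.033 to 0.033 in BBR+OA against OA), Slc10a1 (-0.15 to 0.14 in BBR+OA against OA, -0.27 to 0.025 in OA against control), Nr1h4 (-0.012 to 0.28 in BBR+OA against OA), Slco1b2 (-0.33 to 0.0055 in BBR+OA against BBR), Slc10a2 (-0.073 to 0.073 in BBR+OA against OA) and Slc27a5 (-0.094 to 0.032 in OA against control, -0.14 to 0.020 in BBR+OA against BBR, -0.015 to 0.11 in BBR+OA against control, interaction -0.088 to 0.074). Slc27a5 also changed sign with upper quartile scaling in BBR+OA against control (-0.0047), and in the interaction with RLE (-0.0086), upper quartile (-0.0018) and DESeq2 (-0.0081). The cause was not tested.

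Correlations of same-numbered replicates' deviations were above 0 in 14 of 15 pairs but low (-0.028 to 0.16), and in 3 of 5 comparisons (not BBR+OA against OA or against control) every library correlated best with its own number, a hint from the data; not every pair exceeded 0.1, so the numbers were not treated as a pairing. With the replicate block, 6, 0, 4, 3 and 4 members were called in the 5 comparisons in the order above and 5 in the interaction, Slco1b2 being added. Over all genes the block moved the BBR+OA against OA count from 563 to 1333, and that of the other bile acid genes from 6 to 11. The block raised the remaining all-gene counts too, by less than 1.5 times. They went from 3484 to 4153 for BBR, 5311 to 6628 for OA and 4826 to 5281 for BBR+OA against BBR. For BBR+OA against control the count went from 5461 to 6163, and for the interaction from 1551 to 2265. Other counts that moved by over 1.5 times were, for BBR+OA against OA, 249 without OA replicate 2 and 373, 230 and 216 without BBR+OA replicates 1, 2 and 3, 2351 at an unadjusted p under 0.05 and 31 at 2-fold (other bile acid genes 3 without OA replicate 2 or BBR+OA replicate 2, 11 unadjusted, 0 at 2-fold); for the interaction, 1551 genes became 1027 without OA replicate 2, 1028 without BBR replicate 2, 3266 at an unadjusted p and 161 at 2-fold, and the other bile acid genes went from 15 to 9, 8 and 9 without control replicate 2, OA replicate 2 and BBR replicate 2, and to 0 at 2-fold. At 2-fold the counts over all genes were 276 of 3484 for BBR, 617 of 5311 for OA, 550 of 4826 for BBR+OA against BBR and 663 of 5461 for BBR+OA against control, and those of the other bile acid genes 0 of 22, 4 of 21, 3 of 17 and 3 of 27. Depth limits Cyp7a1 (0 to 2 counts a library), the BBR values of Nr0b2 and Baat (5 to 17 counts a library) and the BBR+OA values of Nr0b2 (8 to 12). It also limits the OA values of Nr0b2 (17, 14 and 15 counts) and the treated values of Slco1b2. Slco1b2 had 16, 23 and 24 counts in OA, 37, 16 and 30 in BBR, and 28, 19 and 26 in BBR+OA.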
